A study of Homo sapiens with 4 samples.

Results

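The genes that carry new proteins into the endoplasmic reticulum (ER) and onward to the Golgi were examined in NCI-H929, a long-established line of human multiple myeloma cells. The set holds 49 of the 56809 genes in the count table, chosen by gene name from 6 roles: signal recognition, translocon, signal peptidase, COPII coat, cargo receptors and COPI coat. All 49 names matched a row, and all 49 passed the filter on low counts. The first group comprised 2 poly(A) RNA-seq libraries of BCL7A knockout (KO) cells, which expressed Cas9, carried a doxycycline-inducible BCL7A KO construct, were selected with puromycin for 3 days and then received 0.5 ug/ml doxycycline for 24 h. The second group comprised 2 control libraries of Cas9-expressing NCI-H929 cells given the same selection and doxycycline; the protocol gives them a control construct, whereas titles and genotype labels call them wild type. Cas9, puromycin and doxycycline were thus common to both groups by the protocol. BCL7A encodes a subunit of the BAF (SWI/SNF) chromatin remodelling complexes. Whether the 2 libraries per group are separate cultures, and from how many clones, is not stated in the labels, so the p-values reflect library-to-library spread that could be technical only.

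Proteins with a signal sequence are caught at the ribosome by the signal recognition particle (SRP), brought to the SRP receptor on the ER membrane and threaded through the SEC61 channel, after which signal peptidase removes the signal sequence. COPII coats then bud vesicles from the ER, cargo receptors load soluble proteins into them, and COPI coats return receptors and escaped ER residents from the Golgi. Plasma cells and myeloma cells, which make large amounts of immunoglobulin, depend on this route, and many of its genes are known targets of XBP1, a transcription factor of the unfolded protein response.

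The KO libraries held 38671744 and 40799624 gene counts, against 17567202 and 20153596 for control, so the groups also differed in depth. BCL7A was at 1.31 and 1.19 CPM (counts relative to the library total, scaled by TMM) in KO cells, against 42.9 and 45.7 CPM in control cells. Plasma cell markers summed to 12037 to 12050 CPM in KO cells and to 6769 to 6825 CPM in control cells. All 10 were called higher in KO cells, as were 54.2% of tested genes averaging 10 CPM or more and 36.4% of all tested genes. IRF4 and FKBP11 had log2 fold changes (KO over control) of only 0.22 and 0.27. Scaling by library totals only moved all genes by -0.28, so the direction of these markers depends on the scaling. The 8 mature B cell markers summed to 33.2 and 36.1 CPM in KO cells and to 449 and 461 CPM in control cells. Nearly all of the KO sum was CD79B, which rose (31.1 ± 1.67 CPM in KO and 18.6 ± 2.92 CPM in control cells; SD, n = 2 each), whereas CD79A averaged 0.165 ± 0.0726 CPM in KO and 84.5 ± 2.34 CPM in control cells, CD74 1.41 ± 0.342 CPM in KO and 265.9 ± 4.24 CPM in control cells, and PAX5 and BLNK fell as well. T cell markers summed to 14.2 and 14.3 CPM in KO and 28.2 and 29.3 CPM in control cells, and epithelial markers to 12.0 and 12.6 CPM in KO and 66.1 and 70.9 CPM in control cells. Erythroid markers summed to at most 0.570 CPM in KO cells and to at most 5.09 CPM in control cells, and myeloid markers to 57.0 and 58.7 CPM in KO cells and 27.3 and 31.0 CPM in control cells, nearly all of it CD68. CD3D and KRT19 had 0 counts in all 4 libraries. The immunoglobulin heavy chain gene IGHD had 0 counts in both KO libraries and averaged 4682 ± 29.2 CPM in control cells (SD, n = 2), and the epithelial gene EPCAM, also without a count in KO cells, averaged 52.9 ± 2.12 CPM in control cells. Of the other epithelial genes tested, KRT8 fell and CDH1 was not called. KRT18 went the other way and rose, at 6.27 and 6.71 CPM in KO cells, against 2.69 and 1.17 CPM in control cells. Of 15 genes chosen to mark the myeloma line, 14 were tested, 8 were higher in KO cells (57.1%), 4 lower (28.6%) and 2 not called. These shares lay near those of tested genes averaging 10 CPM or more, 54.2% higher and 31.7% lower. Of the 4, IGHD and IGHG1 had 0 counts in both KO libraries and passed the filter only through the control group, so their calls carry no weight. Among the 15, FGFR3 averaged 216 ± 4.29 CPM in KO and 77.9 ± 3.15 CPM in control cells, CCND1 151 ± 1.12 CPM in KO and 538 ± 5.32 CPM in control cells, CCND2 195 ± 3.62 CPM in KO and 15.3 ± 1.16 CPM in control cells, and MAF 165 ± 0.453 CPM in KO and 41.7 ± 1.30 CPM in control cells. In every KO over control value that follows, BCL7A loss and any other difference between the cell populations of the 2 groups cannot be told apart. In bulk RNA, more cells of a type and more RNA per cell cannot be told apart.

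The early secretory genes were higher in KO than in control cells in nearly every role. By edgeR's quasi-likelihood test with Benjamini-Hochberg adjustment over 17885 tested genes (threshold 0.05), 44 of the 49 genes were called higher, 4 lower and TMED10 did not pass. Of the 4, KDELR3 had 0 counts in both KO libraries and passed the filter only through the control group, so its call carries no weight. Among all tested genes, 36.4% were called higher and 39.8% lower, 76.2% in all. Among the 9537 genes averaging 10 CPM or more, a level that 48 of the 49 exceeded, 54.2% were called higher and 31.7% lower. These shares are the background for every count by role below. The median log2 fold change (KO over control) was 0.74 over the 49 genes, -0.06 over all tested genes and 0.19 over genes averaging 10 CPM or more. At least 2-fold higher were 14 of the 49 genes (SRP19, SRP54, SRP72, SRPRA, SEC61G, TRAM1, SSR1, SSR2, SPCS1, SAR1B, PREB, SEC24A, SEC24D and KDELR2), against 9.47% of all tested genes and 9.42% of those averaging 10 CPM or more. The CPM values of the groups did not overlap for 48 of the 49 genes, as for 87.4% of all tested genes. Other scalings moved all genes together, by -0.13 on the log2 scale with upper-quartile factors and by -0.28 with library totals only, where 40 of the 49 were called higher and 6 lower and their median was 0.46. The list of genes at least 2-fold higher also depended on the scaling. With library totals only, just SRP19, TRAM1, SEC24A and SEC24D stayed on it. With upper-quartile factors or a stricter filter (mean of at least 10 CPM), these and SSR2 stayed. Over all tested genes, library totals only gave 4493 higher and 9346 lower calls, against 6506 and 7123.

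**Figure D1:**
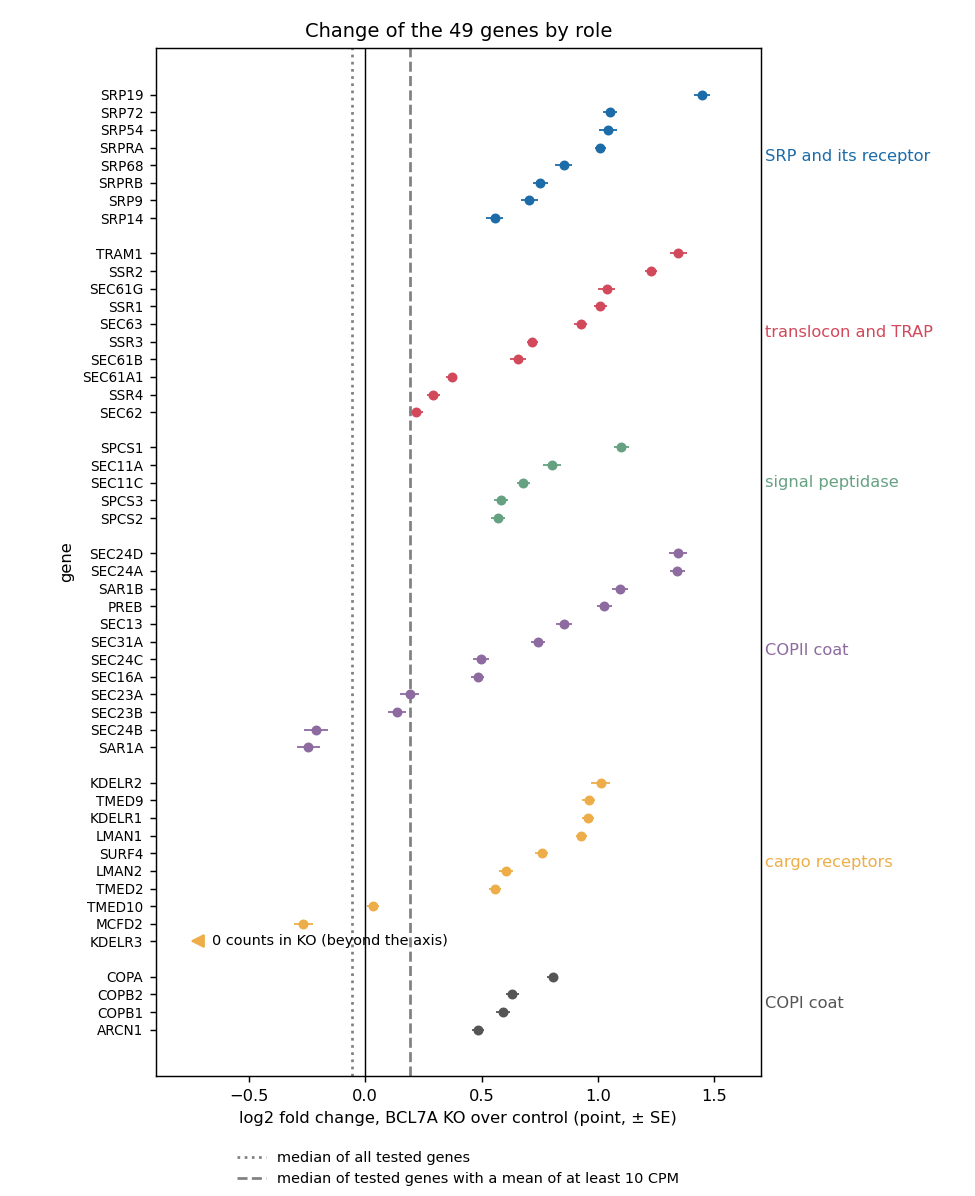
Log2 fold change (KO over control, ± SE) of each of the 49 genes, grouped by role and sorted within it. All points of the SRP, translocon, signal peptidase and COPI roles lie right of 0, while SAR1A, SEC24B and MCFD2 lie left of it and KDELR3, with 0 counts in KO cells, is drawn as an arrow beyond the axis.

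**Figure D2:**
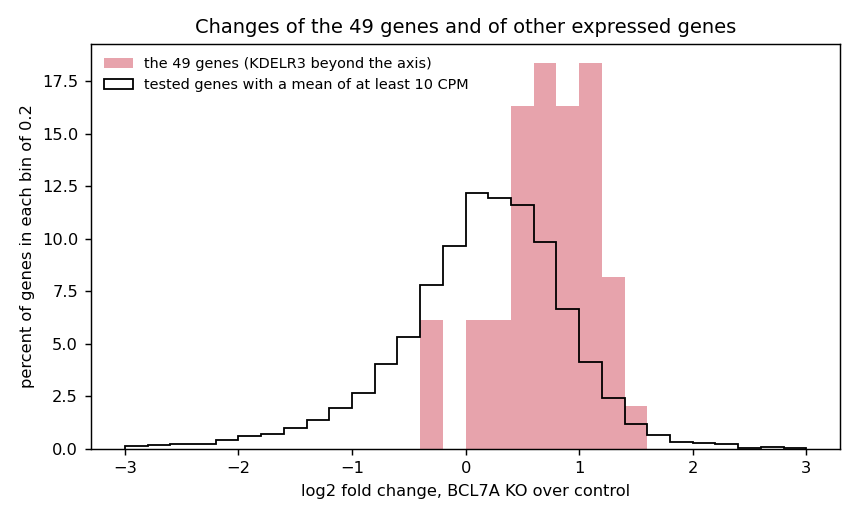
Share of genes in bins of log2 fold change (KO over control), for the 49 genes (filled) and for the 9537 tested genes averaging 10 CPM or more (line). The 49 genes centre on 0.74 and the wider set on 0.19, and KDELR3 lies beyond the axis.

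As a share of all gene counts, with no scaling factor, the 49 genes took 1.63% and 1.64% in KO cells, against 1.17% and 1.18% in control cells. The ratio of the group means was 1.39 in these unscaled shares and 1.69 in scaled CPM. By role, the ratio of unscaled shares was highest for the SRP and its receptor (1.60) and lowest for the COPI coat (1.29). The translocon genes made up the largest part of the set, at 0.481% and 0.484% of counts in KO cells, against 0.327% and 0.335% in control cells.

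All 8 genes of the SRP and its receptor rose, with a median log2 fold change of 0.93. SRP19, which binds the SRP RNA and prepares it for SRP54, rose most of the 49 genes. It measured 194 and 192 CPM in KO cells, against 71.8 and 69.5 CPM in control cells (log2 fold change 1.45, SE 0.04, adjusted p = 6.92e-24). SRP72, which with SRP68 forms a stable heterodimer of the particle, was at 291 and 291 CPM in KO cells, against 140.2 and 140.6 CPM in control cells (log2 fold change 1.05, SE 0.03). Replicates of these genes lay within a few CPM of each other and far from the other group. At the low end, SRP9 and SRP14, which together form the domain that slows elongation, rose less. SRP9 was at 153 and 161 CPM in KO cells, against 92.7 and 99.6 CPM in control cells (log2 fold change 0.71, SE 0.04). SRP14 was at 150.4 and 153 CPM in KO cells, against 99.6 and 106 CPM in control cells (log2 fold change 0.56, SE 0.04). Between these lay SRP54, the GTPase that binds the signal sequence (173 ± 1.27 CPM in KO and 83.9 ± 6.32 CPM in control cells; SD, n = 2 each), and SRP68 (148 ± 0.377 CPM in KO and 81.7 ± 1.65 CPM in control cells). The receptor GTPase SRPRA averaged 1230 ± 4.02 CPM in KO cells and 610.1 ± 15.4 CPM in control cells, and its membrane anchor SRPRB 220.2 ± 3.87 CPM in KO and 131 ± 0.181 CPM in control (log2 fold changes 1.01 and 0.75).

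All 10 genes of the translocon and the translocon-associated TRAP complex rose, but by unequal amounts, from 0.22 to 1.35 on the log2 scale. TRAM1, a membrane protein that contacts chains entering the channel, was at 1015 and 1048 CPM in KO cells, against 386 and 424 CPM in control cells (log2 fold change 1.35, SE 0.04, adjusted p = 1.79e-11). SSR2, the beta subunit of TRAP, was at 889 and 877 CPM in KO cells, against 383 and 371 CPM in control cells (log2 fold change 1.23, SE 0.03, adjusted p = 1.66e-25). Both genes were more than 2-fold higher, although SSR2 fell short of this with library totals only (log2 fold change 0.95). Their groups did not overlap, which in either direction was the rule, found for 87.4% of all tested genes. SSR1 (alpha) had a log2 fold change of 1.01 (SE 0.03) and SSR3 (gamma) of 0.72 (SE 0.02). SSR4 (delta) was at 413 and 414 CPM in KO cells, against 326 and 348 CPM in control cells, a log2 fold change of 0.29 (SE 0.03) that was 0.01 and not called with library totals only (adjusted p = 0.721). Of the channel subunits, SEC61A1, which forms the pore, averaged 779.6 ± 4.79 CPM in KO cells and 602 ± 2.65 CPM in control cells (log2 fold change 0.37, SE 0.02). The small subunits SEC61B and SEC61G had log2 fold changes of 0.66 (SE 0.03) and 1.04 (SE 0.04), and the level of SEC61G was 148 ± 2.88 CPM in KO cells, against 72.0 ± 0.800 CPM in control cells. SEC63, which recruits the chaperone BiP to the channel, rose by 0.93 (SE 0.03). Its partner in post-translational import, SEC62, was at 205 and 199 CPM in KO cells, against 176 and 171 CPM in control cells. Its log2 fold change of 0.22 (SE 0.03) was -0.062 with library totals only (adjusted p = 0.0698) and 0.02 with a stricter filter (adjusted p = 0.531), so its direction depended on the scaling.

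The 5 signal peptidase genes rose within a narrower range, 0.57 to 1.10 on the log2 scale. SPCS1, a small accessory subunit, led at 334 and 336 CPM in KO cells, against 149.9 and 162 CPM in control cells (log2 fold change 1.10, SE 0.03). SEC11A and SEC11C are alternative catalytic subunits. SEC11A was at 111 and 115 CPM in KO cells, against 63.0 and 66.2 CPM in control cells (log2 fold change 0.80, SE 0.04). SEC11C was at 492 and 479 CPM in KO cells, against 298 and 308 CPM in control cells (log2 fold change 0.68, SE 0.03). The accessory subunits SPCS2 and SPCS3 rose least. SPCS2 was at 288 and 292 CPM in KO cells, against 201 and 190.2 CPM in control cells (log2 fold change 0.57, SE 0.03). SPCS3 was at 479 and 496 CPM in KO cells, against 312 and 338 CPM in control cells (log2 fold change 0.58, SE 0.03). All libraries of the KO group lay above all control libraries for each of the 5 genes. Groups without overlap, in either direction, were found for 87.4% of all tested genes.

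The COPII genes moved in both directions, with 10 of 12 higher and 2 lower (median 0.62). Among tested genes averaging 10 CPM or more, 54.2% were higher and 31.7% lower. The cargo adaptors SEC24D and SEC24A had the largest increases of the coat. SEC24D was at 145 and 149.6 CPM in KO cells, against 56.5 and 59.3 CPM in control cells (log2 fold change 1.35, SE 0.04, adjusted p = 4.19e-22). SEC24A was at 221 and 225 CPM in KO cells, against 88.1 and 87.6 CPM in control cells (log2 fold change 1.34, SE 0.03, adjusted p = 9.73e-24). SEC24C, another adaptor, rose less. It was at 269.9 and 273 CPM in KO cells, against 201 and 185 CPM in control cells (log2 fold change 0.50, SE 0.03). SEC24B fell, at 41.1 and 43.8 CPM in KO cells, against 50.4 and 48.1 CPM in control cells (log2 fold change -0.21, SE 0.05, adjusted p = 6.99e-04). Without KO replicate 1 the call on SEC24B was lost (log2 fold change -0.16, adjusted p = 0.0525).

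The GTPases that start coat assembly also went apart. SAR1B was at 169.7 and 171 CPM in KO cells, against 79.1 and 80.3 CPM in control cells (log2 fold change 1.10, SE 0.03, adjusted p = 2.98e-21). SAR1A was at 49.04 and 46.53 CPM in KO cells, against 55.52 and 57.54 CPM in control cells (log2 fold change -0.24, SE 0.05, adjusted p = 6.20e-05). PREB, the exchange factor that loads SAR1 with GTP, averaged 201 ± 4.27 CPM in KO cells and 98.5 ± 1.34 CPM in control cells (log2 fold change 1.03, SE 0.03). The SEC23 genes, whose products activate the SAR1 GTPase, differed little. SEC23A was at 73.1 and 73.6 CPM in KO cells, against 64.0 and 64.6 CPM in control cells (log2 fold change 0.19, SE 0.04, adjusted p = 1.91e-04). SEC23B was at 88.8 and 88.5 CPM in KO cells, against 79.1 and 82.2 CPM in control cells (log2 fold change 0.14, SE 0.04, adjusted p = 0.00279). Neither was called with upper-quartile factors or a stricter filter, and SEC23B was not called with thinned KO counts (adjusted p = 0.0579). With library totals only SEC23B was called lower (-0.15, adjusted p = 0.00153) and SEC23A had the opposite sign without a call (-0.090, adjusted p = 0.0537), so their direction depended on the scaling. The outer coat genes SEC13 and SEC31A rose by 0.86 (SE 0.03) and 0.74 (SE 0.03) on the log2 scale, and SEC16A, a scaffold of ER exit sites, by 0.48 (SE 0.03).

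Of the cargo receptors, 7 of 10 were called higher, 2 lower (MCFD2 and KDELR3) and 1 was not called. The call on KDELR3 carries no weight, since it passed the filter only through the control group. Of the KDEL receptors, which return ER residents from the Golgi, KDELR1 and KDELR2 rose by similar amounts. KDELR1 was at 791 and 781 CPM in KO cells, against 403 and 407 CPM in control cells (log2 fold change 0.96, SE 0.02, adjusted p = 2.40e-23). KDELR2 was at 114 and 113 CPM in KO cells, against 53.9 and 58.5 CPM in control cells (log2 fold change 1.01, SE 0.04). KDELR3 had 0 counts in both KO libraries, against 129 and 167 counts (6.67 and 7.52 CPM) in control cells. Taking 3 counts over the KO group as the limit of detection (0.0416 CPM), KDELR3 was at least 171-fold lower in KO cells, a bound that covers counting error only. It was the one gene of the set with a mean under 10 CPM, and even in control libraries it contributed little beside KDELR1.

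LMAN1, a lectin that carries glycoproteins out of the ER, and its partner MCFD2 diverged. LMAN1 averaged 885 ± 7.84 CPM in KO cells and 465 ± 7.83 CPM in control cells (log2 fold change 0.93, SE 0.02). MCFD2 was at 83.1 and 85.1 CPM in KO cells, against 106 and 97.1 CPM in control cells (log2 fold change -0.27, SE 0.04, adjusted p = 1.36e-06). LMAN2, another lectin, and SURF4, a receptor for soluble cargo, had log2 fold changes of 0.61 (SE 0.03) and 0.76 (SE 0.03). Of the p24 proteins, which act as receptors in both coats, TMED9 was at 354 and 349 CPM in KO cells, against 177 and 184 CPM in control cells (log2 fold change 0.96, SE 0.03). TMED2 rose by 0.56 (SE 0.03) on the log2 scale. TMED10 was at 449.8 and 457 CPM in KO cells, against 434 and 452 CPM in control cells, and its groups overlapped (log2 fold change 0.03, SE 0.03, adjusted p = 0.247). TMED10 was called lower with upper-quartile factors (-0.0997), library totals only (-0.25) and a stricter filter (-0.16), and higher with no filter (0.12, adjusted p = 3.08e-05), so its direction depended on the scaling.

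The 4 COPI genes rose by similar amounts, 0.48 to 0.81 on the log2 scale. COPA, the alpha subunit, was at 902 and 901 CPM in KO cells, against 519.5 and 512 CPM in control cells (log2 fold change 0.81, SE 0.02, adjusted p = 6.25e-22). COPB2, the beta-prime subunit, was at 368 and 369.7 CPM in KO cells, against 243 and 233 CPM in control cells (log2 fold change 0.63, SE 0.03). COPB1, the beta subunit, was at 305 and 320.2 CPM in KO cells, against 204 and 211 CPM in control cells (log2 fold change 0.59, SE 0.03). ARCN1, the delta subunit, was at 705 and 729 CPM in KO cells, against 525 and 501 CPM in control cells (log2 fold change 0.48, SE 0.03). No COPI gene reached a 2-fold difference.

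**Figure D3:**
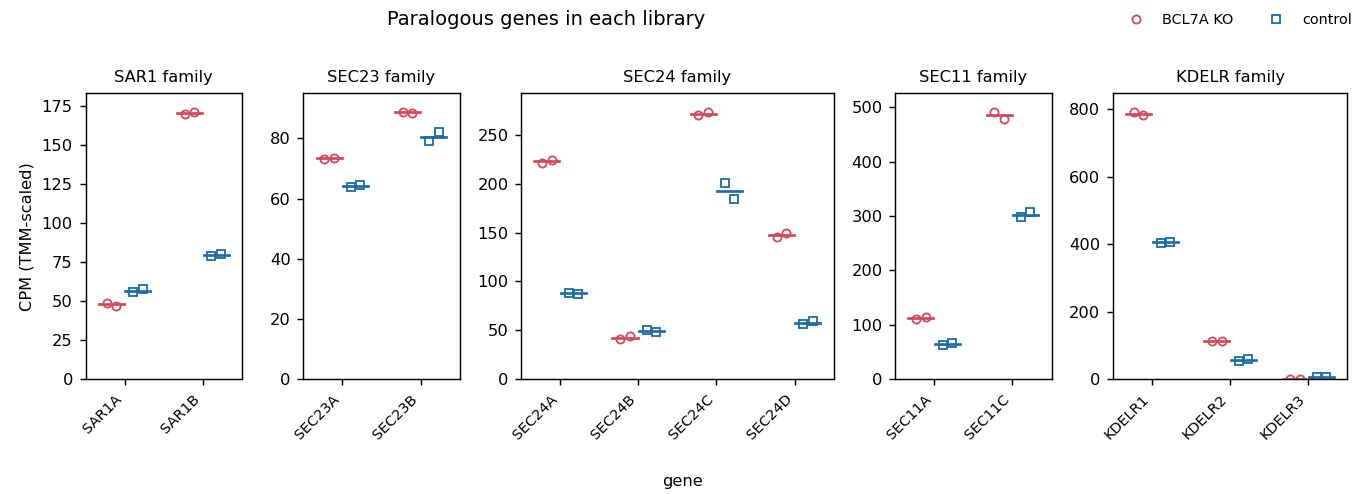
CPM of each paralogous gene in each library, with KO libraries as circles and control libraries as squares and group means as bars. SAR1B, SEC24A and SEC24D were more than 2-fold higher in KO cells while SAR1A and SEC24B were lower, and KDELR3 lay at 0 in KO cells.

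The balance of paralogs was compared as the log2 ratio of CPM (plus 0.5) within each library, in which gene lengths cancel between the groups. SAR1B over SAR1A was 1.78 and 1.87 in KO cells, against 0.51 and 0.48 in control cells, a difference of 1.33. SEC24A over SEC24B was 2.41 and 2.35 in KO cells, against 0.80 and 0.86 in control cells, a difference of 1.55. SEC24D over SEC24C was -0.89 and -0.87 in KO cells, against -1.82 and -1.63 in control cells, a difference of 0.84. In these 3 pairs the difference between groups was several times the gap between replicates. It was small for SEC11C over SEC11A (-0.12), SEC23A over SEC23B (0.05) and KDELR2 over KDELR1 (0.05). KDELR3 over KDELR2 rests on 0 counts of KDELR3 in KO cells, so its difference is set by the pseudocount (-4.93 with 0.5 and -4.02 with 1). Over the 7 pairs compared, a two-sided exact permutation test gave p = 0.333 for each (0.333 after Benjamini-Hochberg adjustment), the smallest that 2 libraries against 2 allow.

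Levels can be compared between genes only per length, for which CPM was divided by the length of each gene's principal transcript in GENCODE 29; which transcripts the cells used was not measured. On this scale SSR2 was the highest of the 49 genes in KO cells (791 CPM per kb) and SSR4 in control cells (525 CPM per kb). SSR4 was at 643 CPM per kb in KO cells and SSR2 at 338 CPM per kb in control cells, so the order of these TRAP subunits differed between the groups. The channel subunits SEC61A1, SEC61B and SEC61G stood at 214, 296 and 320.2 CPM per kb in KO cells and at 166, 187 and 156 CPM per kb in control cells. The lowest levels above 0 in KO cells belonged to SEC24B and SAR1A, at 11.2 and 15.9 CPM per kb, against 13.0 and 18.9 CPM per kb in control cells.

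Other genes of the same route were also mostly higher in KO cells. Of 79 further genes, none a member of the set, 61 rose (77.2%), 12 fell (15.2%) and 6 did not pass, with a median log2 fold change of 0.44. Over all tested genes 36.4% were higher and 39.8% lower, and over those averaging 10 CPM or more 54.2% and 31.7%. With library totals only 43 were higher and 24 lower, beside 25.1% and 52.3% of all tested genes. With a stricter filter 44 were higher and 19 lower, beside 42.2% and 43.1% of all genes then tested. Among them were 11 genes of the COPI coat and ARF1 cycle (10 rose and 1 fell), 12 of the COPII coat and exit sites (8 rose and 3 fell) and 14 cargo receptors and recycling proteins (11 rose and 1 fell). The ER-Golgi tethers and SNAREs had 10 of 16 higher and 4 lower, the translocon partners 8 of 9 higher and 1 lower, and the EMC and GET membrane insertion genes 14 of 17 higher and 2 lower. The tethers and SNAREs (62.5% higher, 25.0% lower) and the COPII group (66.7% higher, 25.0% lower) lay nearest to the shares of genes averaging 10 CPM or more. ERGIC1, a cycling membrane protein, rose most, with 633 ± 3.61 CPM in KO cells and 219.6 ± 6.21 CPM in control cells (log2 fold change 1.53, SE 0.03). TRAPPC4, a tethering complex subunit, and ASNA1, the ATPase that delivers tail-anchored proteins, followed with log2 fold changes of 1.39 (SE 0.04) and 1.203 (SE 0.042). The COPI zeta isoform COPZ2 fell furthest, with 0.693 ± 0.0536 CPM in KO cells and 22.1 ± 1.37 CPM in control cells (log2 fold change -4.98, SE 0.16). SEC31B, a paralog of SEC31A, and TMED4, a p24 protein, also fell (log2 fold changes -1.29, SE 0.07, and -0.83, SE 0.03).

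The members were set beside their chromosomal neighbours, taken as up to 20 protein-coding genes on each side averaging 10 CPM or more, members left out. On chromosome 5, where the median log2 fold change of 408 such genes was 0.74, lie 5 members (GRCh38 positions): SRP19 (112861188 to 112898371), SAR1B (134601144 to 134649271), SEC24A (134648789 to 134727823), LMAN2 (177331562 to 177351852) and TMED9 (177592158 to 177596124). Their neighbours had medians of 0.57 to 0.76, and LMAN2 exceeded only 55.0% of its neighbours, while SRP19 exceeded 97.5%. SAR1B and SEC24A are adjacent on opposite strands and share 385 exonic bases in GENCODE 29, so their counts cannot be fully separated without a stated strand setting. SSR4 exceeded 27.5% of its neighbours (median 0.65) and MCFD2 15.0% (median 0.33). SEC61G on chromosome 7 (log2 fold change 1.04) had neighbours with a median of -0.44, and SPCS1 on chromosome 3 (1.10) exceeded all 40 of its neighbours, whose median was -0.02. Without KDELR3, 43 of 48 members lay above the median of their neighbours, and across these 48 genes, which share libraries and scaling, Pearson's r was 0.34 and Spearman's rho 0.31. The part of chromosomal position in the changes was not tested.

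**Figure D4:**
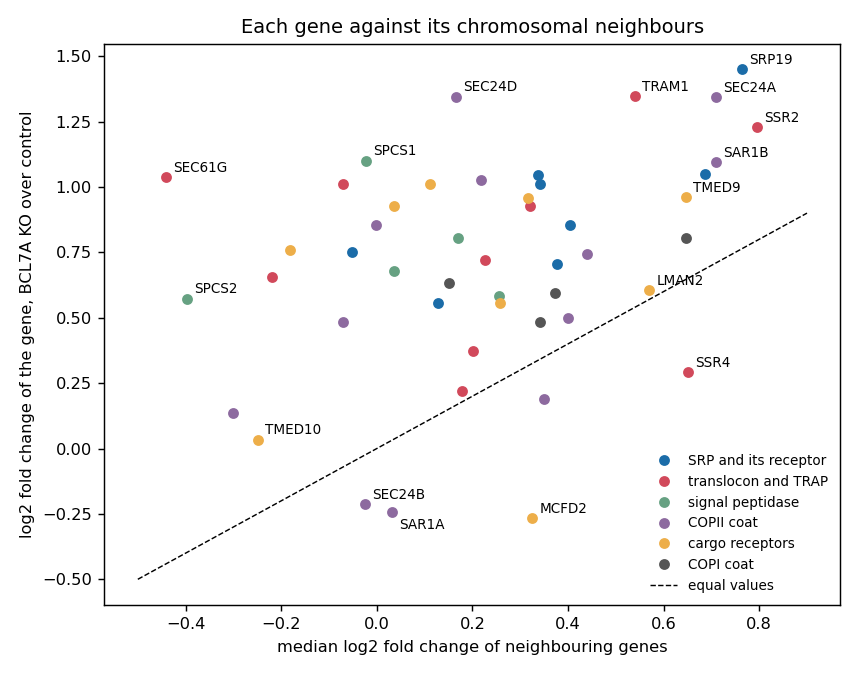
Log2 fold change (KO over control) of 48 members against the median of up to 40 neighbouring genes, coloured by role, with a dashed line of equal values. Of the 48 points 43 lie above the line, and MCFD2, SSR4, SAR1A, SEC24B and SEC23A lie below it. The chromosome 5 genes SRP19, SEC24A, SAR1B, TMED9 and LMAN2 sit at the right. So do SSR2, which lies furthest right, SRP72, SSR4 and COPA, which are on other chromosomes.

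Promoters of the 49 genes were searched for known elements of the unfolded protein response, after the changes had been seen. RefSeq promoter windows (GRCh38.p14, 250 bases before to 50 after a start) were found for 43 of the 49 genes, in 59 windows; KDELR2, SEC24D, SPCS1, SRPRA, TMED9 and TRAM1 had none. The letters TGACGTGG, the core of the unfolded protein response element that XBP1 and ATF6 are known to bind, occurred on either strand in windows of 11 of the 43 genes, which is 25.6%. Among all 27305 genes with a window 0.927% held it, and among 7525 tested genes averaging 10 CPM or more 1.28% did. These shares describe the promoters of a set in which many genes are known XBP1 targets, and they do not depend on the KO. XBP1 itself averaged 1897 ± 6.04 CPM in KO cells and 1019 ± 5.80 CPM in control cells. Its part in the changes was not tested. The 11 genes were COPA, COPB1, COPB2, KDELR3, SEC16A, SEC23A, SEC24A, SEC62, SRP19, SSR3 and SSR4. The shorter GACGTG, which lies within that core, occurred in 53.5% of the 43 genes, 9.34% of all genes and 13.9% of the genes averaging 10 CPM or more. The ER stress elements, CCAAT and CCACG with 9 bases between and ATTGG and CCACG with 1 base between, occurred in 0 of the 43 genes, in 0.0916% and 0.0696% of all genes and in 0.173% and 0.146% of those averaging 10 CPM or more. CCACG, contained in both and overlapping the reverse of the core, occurred in 86.0% of the 43 genes, 42.1% of all genes and 59.0% of the genes averaging 10 CPM or more. CCAAT occurred in 46.5% of the 43 genes, 39.7% of all genes and 44.0% of those averaging 10 CPM or more. GACACGTG occurred in 1 of the 43 genes (2.33%), in 0.696% of all genes and in 1.06% of those averaging 10 CPM or more.

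Windows of 5 genes that hold the core are shown, from the 2 of them that rose most (SRP19 and SEC24A), a coat gene near the median of its role (COPB1), a gene that differed little (SEC23A) and the gene with 0 counts in KO cells (KDELR3). Each is written 5′ to 3′ on the gene's strand, with the core in capitals, which reads CCACGTCA where it lies on the reverse strand. The windows are chr5:112861037-112861336 (plus strand), chr5:134648535-134648834 (plus), chr11:14499762-14500061 (minus), chr14:39103186-39103485 (minus) and chr22:38467846-38468145 (plus).
SRP19 promoter: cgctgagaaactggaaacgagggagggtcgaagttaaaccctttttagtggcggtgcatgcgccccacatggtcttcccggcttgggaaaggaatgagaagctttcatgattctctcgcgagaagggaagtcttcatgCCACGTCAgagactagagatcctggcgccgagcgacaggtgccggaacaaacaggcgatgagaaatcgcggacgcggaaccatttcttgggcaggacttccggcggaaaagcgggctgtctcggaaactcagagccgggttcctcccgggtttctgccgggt
SEC24A promoter: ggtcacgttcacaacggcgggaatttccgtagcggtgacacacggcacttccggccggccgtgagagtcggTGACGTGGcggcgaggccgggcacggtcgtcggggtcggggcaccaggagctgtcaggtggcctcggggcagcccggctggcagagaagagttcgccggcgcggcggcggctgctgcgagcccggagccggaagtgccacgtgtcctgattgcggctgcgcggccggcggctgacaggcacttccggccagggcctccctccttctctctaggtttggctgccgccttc
COPB1 promoter: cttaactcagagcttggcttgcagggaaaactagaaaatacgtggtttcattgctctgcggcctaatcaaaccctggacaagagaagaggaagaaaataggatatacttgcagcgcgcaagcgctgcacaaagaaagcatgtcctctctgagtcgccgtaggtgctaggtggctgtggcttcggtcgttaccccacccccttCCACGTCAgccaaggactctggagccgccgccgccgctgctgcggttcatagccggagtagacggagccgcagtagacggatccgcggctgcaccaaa
SEC23A promoter: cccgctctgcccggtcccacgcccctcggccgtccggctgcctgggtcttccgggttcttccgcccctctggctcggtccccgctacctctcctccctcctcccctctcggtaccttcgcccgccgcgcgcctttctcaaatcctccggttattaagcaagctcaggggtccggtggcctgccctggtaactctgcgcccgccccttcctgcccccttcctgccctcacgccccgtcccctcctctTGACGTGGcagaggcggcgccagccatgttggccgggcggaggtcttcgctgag
KDELR3 promoter: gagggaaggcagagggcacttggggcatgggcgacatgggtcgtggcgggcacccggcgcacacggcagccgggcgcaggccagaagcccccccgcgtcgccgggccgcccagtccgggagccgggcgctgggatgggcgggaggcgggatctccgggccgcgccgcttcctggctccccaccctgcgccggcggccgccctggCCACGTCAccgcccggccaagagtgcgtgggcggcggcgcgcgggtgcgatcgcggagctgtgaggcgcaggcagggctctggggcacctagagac
The core began 112 bases before the start in SRP19, 179 before it in SEC24A, 48 in COPB1, 4 in SEC23A and 46 in KDELR3. Of the 11 genes with the core, 10 rose and 1 fell (median log2 fold change 0.59). The 1 that fell is KDELR3, whose call carries no weight. Of the 32 genes without the core 28 rose and 3 fell (median 0.72). The genes that had no window are in neither median, and all of them rose, by 0.96 (TMED9) to 1.35 (TRAM1) on the log2 scale. Over all tested genes averaging 10 CPM or more, 54.2% were called higher and 31.7% lower. The part of the core in the changes was not tested.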

How the data were processed

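The data are 4 poly(A) RNA-seq libraries of NCI-H929 cells, 2 BCL7A KO and 2 control, made with a strand-specific kit, per the labels' protocols. Estimated counts for each gene name were deposited by the authors in 1 table. The submitters' processing notes name Salmon 0.12 and GRCh38; the annotation and strand setting were not given in the sources used here. The values were whole numbers and entered the tests unrounded. All 56809 gene names are names of GENCODE release 29 (GRCh38), from which coordinates were taken; 92 spike-in rows, with at most 2 counts, were left out. Salmon divides reads shared by similar transcripts: 13 of the 49 genes have named pseudogenes (highest SPCS2P4, 8.74 CPM), and 27 share exonic bases with another gene, 6 of them on the same strand (SRP19, SRPRB, SSR1, SEC31A, KDELR2 and COPB1), so their counts are uncertain to that extent.

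Genes passing filterByExpr (17885) were scaled with TMM (factors 0.909 and 0.906 in KO, 1.10 and 1.10 in control libraries) and compared by the quasi-likelihood test of edgeR 4.0.16 in R 4.3.3 (trended dispersion, robust glmQLFit, no covariates), with Benjamini-Hochberg adjusted p under 0.05. SE is the absolute log2 fold change over the square root of F. Levels are TMM-scaled CPM. Members, roles and lists were chosen with earlier results of these data known, and motifs and chromosomal neighbours were examined after seeing the data; lists are therefore described by counts and medians. All members could be named; values per library go to paralogs and to the 2 highest and 2 lowest of each role, and of the further pathway genes the 3 highest and 3 lowest are named. Alternatives were RLE, upper-quartile and no factors, no filter, a stricter filter (mean of at least 10 CPM), DESeq2 1.42.0, limma-voom (limma 3.58.1), the replicate number as a block, no robust shrinkage, a threshold of 0.01, each library left out, and KO counts thinned to a total of 18860399. Libraries of a group were not copies of each other: chi-square over its degrees of freedom was 1.79 for KO and 2.43 for control. On simulated counts (17170 genes tested), calls were made on 20 of 50 genes with a simulated 1.2-fold change, 35 of 50 at 1.5-fold, 36 of 50 at 2-fold and 47 of 50 at 4-fold. Of 16977 unchanged genes 4 were called. The simulation used a common dispersion and changed only 50 genes per fold, balanced between directions. In the data 76.2% of tested genes were called, so the scaling was not tried under so many changes.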

Additional observations from a re-analysis of the deposited data

How the results depend on the processing

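Of the 49 genes, 43 kept their direction and call under all 15 alternatives in which they were tested; SEC23A, SEC23B, SEC24B, SEC62, SSR4 and TMED10 did not. The count of members called higher ranged from 40 (library totals only) to 45 (no filter) and of those called lower from 3 to 6, against 44 and 4. Their median of 0.74 was 0.61 with upper-quartile factors, 0.46 with library totals only, 0.83 with no filter, 0.55 with a stricter filter (all genes: -0.01) and 0.70 with thinned KO libraries. TMED10 turned negative with upper-quartile factors (-0.0997), library totals only (-0.25), a stricter filter (-0.16) and thinned KO libraries (-0.000597), and was called higher with no filter (0.12). SEC23A turned negative with library totals only (-0.090) and a stricter filter (-0.0072), as did SEC23B (-0.15 and -0.063), and SEC62 with library totals only (-0.062). The further pathway genes called lower, 12, were 24 with library totals only (43 higher), 7 with no filter (63 higher) and 19 with a stricter filter (44 higher), against 61 higher. Over all genes, a stricter filter left 4049 higher and 4130 lower calls, with fewer genes tested, and library totals only gave 4493 higher and 9346 lower, against 6506 and 7123. Leaving out 1 library gave 1 to 2 COPII genes called lower; the lone library left in a group was assumed to vary like the other group. With the replicate number as a block, 44 members were higher and 4 lower, and no call on a member changed. The difference of replicate 1 from replicate 2 correlated weakly and negatively between the groups (r = -0.20 over 9537 genes). A block with crossed numbers also gave 44 and 4. The control libraries were the shallower ones, so genes at a few CPM, such as KDELR3, are the least precise.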
